A study of Mus musculus with 8 samples.

Results

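Whole tumors were profiled for 34 genes that make heme, break it down, carry it or handle iron, out of 24675 genes with a named probe set. The 34 genes were taken by symbol from the array annotation, and all 34 had 1 probe set. They were listed with the differences between the diets already known, so each difference between HFHCD and CD given for them is a description and carries no p-value. Tumors came from female C57BL/6J mice, which received B16-F10 cells, a mouse melanoma line of the same strain, under the skin of the flank at 9 weeks of age. Mice of the HFHCD group (4 tumors) had eaten a diet with added cocoa butter and cholesterol for 2 weeks before the injection, and mice of the CD group (4 tumors) standard chow. The paper gives a switch from HFHCD to chow at injection only for a separate experiment. Tumors of both groups were taken at day 9 and hybridised whole to Affymetrix MouseGene2.0ST arrays, so melanoma cells and host cells contribute to every value, and fewer cells of a type cannot be told apart from less RNA per cell. The sample titles write HFD for the cocoa butter diet, which the design text and the methods call HFHCD throughout.

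Heme is an iron-bearing ring that serves in respiration, oxygen transport and many oxidases. Its synthesis begins in the mitochondrial matrix with the joining of glycine and succinyl-CoA, passes through the cytosol, and returns to the mitochondrion for the last oxidations and the insertion of iron. Cells take up iron mostly through the transferrin receptor, store it in ferritin and release it through ferroportin, while macrophages also recover it from the heme of old red blood cells.

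Values are log2 expression after RMA, so a difference of 1 is a doubling, and each value belongs to the probe set of 1 gene and is compared only with the same gene in other tumors. The median of an array was 5.04 to 5.21. Pairs of arrays correlated at 0.991 to 0.994 within HFHCD and at 0.974 to 0.99 within CD, where CD 1 was far out on the first principal component and CD 3 on the second. Macrophage markers were lower in HFHCD tumors (11 of 16 measured markers at an unadjusted p under 0.05 by limma, 0 higher), with a mean over the markers of 5.61 to 6.21 in HFHCD tumors and 6.22 to 7.80 in CD tumors. The CD values were 7.40 in CD 1 and 7.80 in CD 3, against 6.34 in CD 2 and 6.22 in CD 4. Fibroblast markers (9 of 12 lower, 5.58 to 5.74 in HFHCD tumors, 6.26 to 7.62 in CD tumors) and skeletal muscle markers (11 of 14 lower, 5.0 to 5.48 in HFHCD tumors, 5.38 to 7.02 in CD tumors) were lower in the same way. Melanocyte lineage markers averaged 11.03 to 11.13 in HFHCD tumors and 10.84 to 11.04 in CD tumors, with 3 of 12 higher. Red blood cell and erythroid markers, the cells in which heme synthesis is most active in the body, averaged 4.05 to 4.31 in HFHCD tumors and 4.02 to 4.29 in CD tumors. Of the 15 measured, 9 stayed on every array under 4.5, the 40th percentile of all deposited values, which is used here as the level near background, and 0 passed the threshold.

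At an unadjusted p under 0.05 by limma, the threshold of the methods, 2 of the 34 genes were higher in HFHCD tumors (Ppox and Slc48a1), 4 were lower (Alad, Cpox, Slc11a1 and Hp) and 28 did not pass. Over all 24675 genes, 8.68% passed this threshold, 4.76% higher and 3.91% lower. The list was chosen with this contrast known, so nothing is read from its count. No gene of the array passed after Benjamini-Hochberg adjustment over all genes by limma, where the smallest adjusted p was 0.32. The 34 differences were split evenly, 17 above 0 and 17 below, and their median was -0.00 on the log2 scale beside 0.002 over all genes. All 4 HFHCD tumors lay above all 4 CD tumors for 2 of the genes (2.93% of all genes) and below them for 2 (2.27% of all genes).

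**Figure D1:**
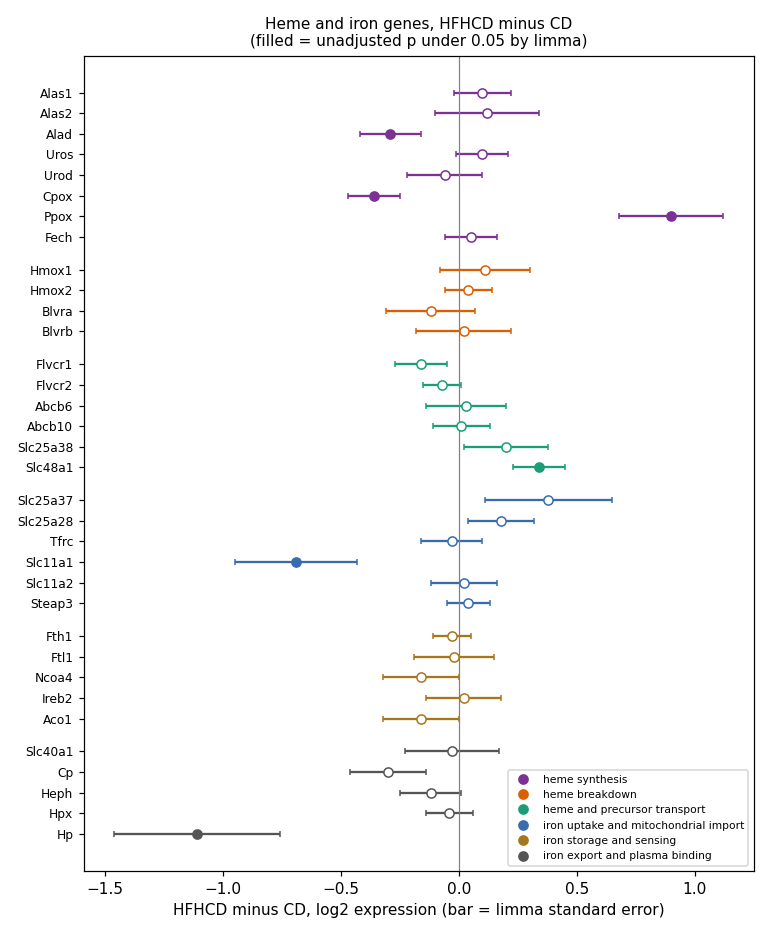
Difference in log2 expression between HFHCD and CD tumors for each of the 34 genes, grouped and colored by role, with the limma standard error as bars (4 tumors per diet). Filled points passed an unadjusted p under 0.05, and Ppox at 0.90 and Hp at -1.11 are the farthest from 0.

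Ppox, which encodes protoporphyrinogen oxidase, the enzyme of the step just before iron is inserted, was 1.86-fold higher in HFHCD tumors. Cpox, which encodes coproporphyrinogen oxidase of the step directly before it, was 1.28-fold lower, and Alad, the cytosolic enzyme that forms the first pyrrole, was 1.22-fold lower. The other 5 enzymes of the pathway did not pass the threshold, with differences from -0.06 to 0.12.

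Promoter sequence was available for 26 of the 34 genes, in 40 windows that run from 250 bases before to 50 bases after a transcript start (RefSeq, GRCm38.p6). Fech, Heph, Hmox1, Hp, Slc11a2, Slc25a37, Slc40a1 and Slc48a1 had no window. The stretches below belong to the enzymes with the largest differences and to enzymes that did not pass, so that the letters can be read beside the values. Ppox is shown first, as the 250 bases before its start on the minus strand, chr1:171281187-171281436, with CCAAT boxes of either strand in capitals.

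Ppox: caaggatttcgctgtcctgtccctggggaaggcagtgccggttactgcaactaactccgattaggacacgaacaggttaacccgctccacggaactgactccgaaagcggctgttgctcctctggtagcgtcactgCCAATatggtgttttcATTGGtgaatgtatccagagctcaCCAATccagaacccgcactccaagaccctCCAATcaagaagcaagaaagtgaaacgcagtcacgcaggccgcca

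The Ppox stretch held 4 CCAAT boxes, and they were looked for after the sequence had been read. CCAAT on either strand occurred before the start in 33.8% of the 32851 mouse windows, and 0.798% held as many as Ppox. Among the 40 windows of the 34 genes, 14 held any and 1 held as many. Cpox is shown at chr16:58670068-58670127 on the plus strand with ACGTG, the core that hypoxia-inducible factors bind, in capitals. Alad (chr4:62520124-62520183, minus strand) and Urod (chr4:116994434-116994493, minus strand) are shown with the E-box CACGTG in capitals, and Alas2 (chrX:150547297-150547356, plus strand) with the GATA site AGATAA, which lies on the opposite strand here.

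Cpox: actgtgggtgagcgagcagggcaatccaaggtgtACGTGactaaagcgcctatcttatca
Alad: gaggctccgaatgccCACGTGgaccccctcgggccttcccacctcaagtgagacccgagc
Urod: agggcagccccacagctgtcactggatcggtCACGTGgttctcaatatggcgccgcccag
Alas2: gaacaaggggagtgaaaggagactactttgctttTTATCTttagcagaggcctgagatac

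Over both strands, ACGTG stood in 30% of the windows of these genes (12 of 40, from 9 of 26 genes) and in 19.6% of all windows. The E-box CACGTG, every copy of which also holds ACGTG, stood in 12.5% against 7.15%, with Alad, Flvcr2, Urod and Uros among the 34 genes. The antioxidant response core TGACNNNGC stood in 12.5% against 12.4%, and AGATAA in 7.5% against 11.2%. The loop of an iron-responsive element, a C followed by 5 bases and CAGTGN on the transcribed strand, stood in 0 of 40 windows and in 1.55% of all windows, where only the first 50 bases after the start could be read. Genes can have several windows that overlap, and a match of letters is a description of these windows only.

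Ppox measured 8.44, 8.25, 7.44 and 7.47 in HFHCD tumors 1 to 4, against 7.02, 6.88, 7.08 and 7.05 in CD tumors 1 to 4. The groups did not overlap, and the HFHCD tumors fell into a higher pair (1 and 2) and a lower pair (3 and 4), whereas the CD tumors lay close together. Means were 7.90 ± 0.52 on HFHCD and 7.0 ± 0.09 on CD (SD, n = 4 tumors each), a difference of 0.90 with a standard error of 0.22. The SD among HFHCD tumors was exceeded by only 1.1% of all genes, and the SD among CD tumors by 86.9%. Over 17 other settings, among them each tumor left out in turn, the difference ranged from 0.72 to 1.05 and passed the threshold in 17.

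Cpox measured 7.05, 7.37, 7.56 and 7.43 in HFHCD tumors, against 7.66, 7.73, 7.74 and 7.71 in CD tumors. All HFHCD tumors lay below all CD tumors, and HFHCD 1, the tumor with the highest Ppox, had the lowest Cpox. HFHCD 1 was the lowest HFHCD tumor for Alas1 and Urod as well. Outside synthesis it was lowest among them for Tfrc, Slc11a2, Steap3, Ireb2, Aco1, Slc40a1, Flvcr1 and Slc48a1. It was the highest HFHCD tumor for Alas2, and these orders were noticed after the values were seen. Cpox means were 7.35 ± 0.22 on HFHCD and 7.71 ± 0.04 on CD (SD, n = 4 each), a difference of -0.36 with a standard error of 0.11. The CD tumors were again close together, and 98.1% of all genes had a larger SD on CD. The difference stayed between -0.43 and -0.26 over 17 settings and passed in 17.

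**Figure D2:**
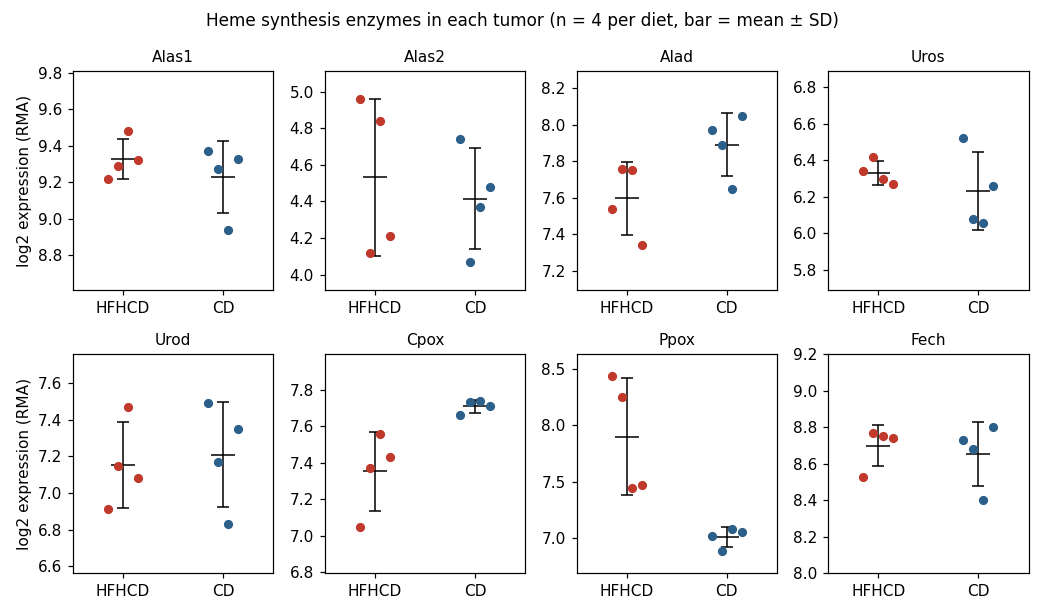
Log2 expression of the heme synthesis enzymes in each tumor, HFHCD left and CD right, with mean and SD as bars (n = 4 per diet), panels in the order of the pathway. Ppox lies at 7.44 to 8.44 in HFHCD tumors and 6.88 to 7.08 in CD tumors, Cpox at 7.05 to 7.56 and 7.66 to 7.74, and the diets overlap in the other 6 panels.

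Alad encodes the enzyme that joins a pair of aminolevulinic acid molecules into porphobilinogen. It measured 7.54, 7.76, 7.75 and 7.34 in HFHCD tumors, against 7.97, 7.89, 7.65 and 8.05 in CD tumors. HFHCD 2 and HFHCD 3 lay above CD 3, so the groups overlapped, with means of 7.60 ± 0.20 on HFHCD and 7.89 ± 0.17 on CD (SD, n = 4 each) and a difference of -0.29 with a standard error of 0.13. It passed in 7 of 17 settings, and leaving out HFHCD 1 (-0.27), HFHCD 4 (-0.21), CD 1 (-0.27), CD 2 (-0.29) or CD 4 (-0.24) each ended the call.

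The genes of the rate-limiting first step did not pass. Alas1, the housekeeping form of aminolevulinate synthase, measured 9.22, 9.29, 9.48 and 9.32 in HFHCD tumors, against 9.37, 9.27, 8.94 and 9.33 in CD tumors, a difference of 0.10 with a standard error of 0.12. CD 3 was the lowest tumor, and the other CD tumors lay inside the range of the HFHCD tumors. Alas2, the erythroid form, measured 4.96, 4.12, 4.84 and 4.21 in HFHCD tumors, against 4.74, 4.07, 4.37 and 4.48 in CD tumors, a difference of 0.12 with a standard error of 0.22. These values lie about the level near background, and HFHCD 1, HFHCD 3 and CD 1 were the highest tumors. Of the defining erythroid genes, the hemoglobin gene Hbb-bt was highest in the same 3 tumors, at 4.97, 3.81, 4.89 and 3.11 in HFHCD tumors, against 4.80, 3.31, 3.46 and 4.39 in CD tumors, which was noticed after the values were seen. The others had other orders: Hbb-bs (2.55 to 3.25 in HFHCD tumors, 2.70 to 3.16 in CD tumors) was highest in HFHCD 1 and CD 4, Klf1 in HFHCD 2, Gata1 in CD 1 and HFHCD 2, and Slc4a1 in CD 2. The part of red blood cells in the spread of Alas2 was not tested.

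The middle and last steps overlapped between the diets. Uros, whose enzyme closes the ring, measured 6.34, 6.42, 6.30 and 6.27 in HFHCD tumors, against 6.52, 6.08, 6.06 and 6.26 in CD tumors (difference 0.10, standard error 0.11). Urod, whose enzyme trims its side chains, measured 6.91, 7.15, 7.47 and 7.08 in HFHCD tumors, against 7.49, 7.17, 6.83 and 7.35 in CD tumors (difference -0.06, standard error 0.16). For both genes the highest tumor overall was CD 1, and CD 3 was the lowest.

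Fech encodes ferrochelatase, which inserts iron and completes heme directly after the PPOX step. It measured 8.53, 8.77, 8.75 and 8.74 in HFHCD tumors, against 8.73, 8.68, 8.40 and 8.80 in CD tumors, a difference of 0.05 with a standard error of 0.11. HFHCD 1 had the lowest Fech among HFHCD tumors and the highest Ppox, which was noticed after the values were seen. HFHCD 1 was also the lowest HFHCD tumor for genes outside synthesis, as given above beside Cpox.

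Among genes with a measured probe set, Ppox lies on chromosome 1 between B4galt3 and Usp21, with Adamts4 and Ufc1 next on either side. No other measured gene overlaps it in the RefSeq gene table, and listed genes without a measured probe set were not searched. These neighbours are not heme genes, and they were tested in the same limma fit over all genes. Usp21, which encodes a ubiquitin protease, measured 8.68, 8.60, 8.80 and 8.78 in HFHCD tumors, against 8.30, 8.19, 8.08 and 8.53 in CD tumors. It was higher in 4 of 4 HFHCD tumors than in any CD tumor, by 0.44 with a standard error of 0.11 (limma, unadjusted p = 0.00312, adjusted p = 0.423), and passed in 17 of 17 settings. Its HFHCD tumors 3 and 4 lay above 1 and 2, the other way round from Ppox.

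B4galt3, which encodes a galactosyltransferase, measured 8.79, 8.87, 9.10 and 8.82 in HFHCD tumors, against 8.44, 8.77, 8.18 and 8.78 in CD tumors. It was higher by 0.35 with a standard error of 0.15 (limma, unadjusted p = 0.0397, adjusted p = 0.551), with all HFHCD tumors above all CD tumors, but HFHCD 1 and CD 4 nearly met. The call was lost in 10 of 17 settings, among them without HFHCD 2 (0.36), HFHCD 3 (0.28), HFHCD 4 (0.38), CD 1 (0.32) or CD 3 (0.23), and the difference was 0.12 without CD 1 and CD 3 together. Adamts4 (difference 0.21, standard error 0.16, limma, unadjusted p = 0.236, adjusted p = 0.791) and Ufc1 (difference 0.04, standard error 0.18, limma, unadjusted p = 0.845, adjusted p = 0.981) did not pass.

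**Figure D3:**
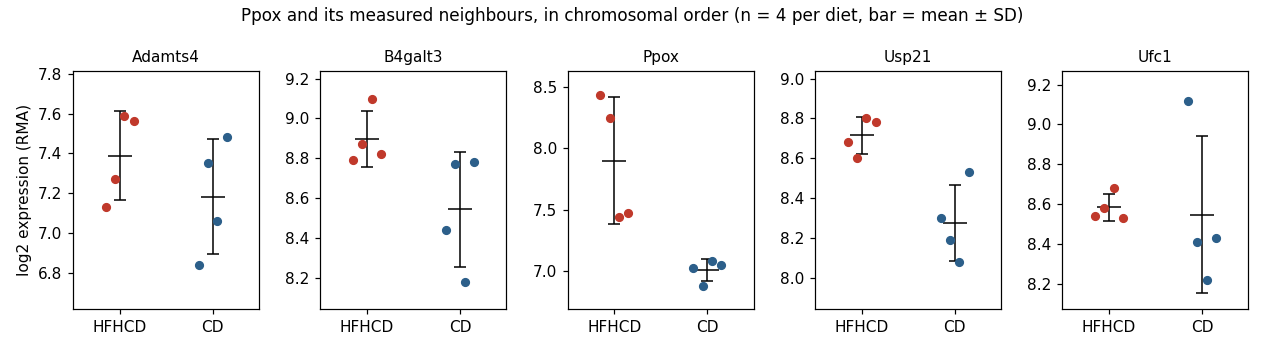
Log2 expression of Ppox and its nearest measured genes on chromosome 1, in their order along the chromosome, in each tumor (HFHCD left, CD right, bars mean and SD, n = 4 per diet). Usp21 lies at 8.60 to 8.80 in HFHCD tumors and 8.08 to 8.53 in CD tumors, and Adamts4 and Ufc1 overlap between the diets.

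None of the 4 genes of heme breakdown passed, and none of their groups stood apart. Hmox1, the inducible heme oxygenase that opens the ring to biliverdin, carbon monoxide and iron, measured 9.55, 9.23, 9.83 and 9.48 in HFHCD tumors, against 9.65, 8.90, 9.40 and 9.71 in CD tumors, a difference of 0.11 with a standard error of 0.19. The values interleave, with CD 2 the lowest tumor and HFHCD 3 the highest. Hmox2, the constitutive form, averaged 8.59 ± 0.04 on HFHCD and 8.55 ± 0.18 on CD (SD, n = 4 each), a difference of 0.04.

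The biliverdin reductases Blvra and Blvrb, which turn biliverdin into bilirubin, differed by -0.12 and 0.02. Blvra ran from 8.25 to 8.71 in HFHCD tumors and from 8.30 to 9.19 in CD tumors, and Blvrb from 7.35 to 7.59 in HFHCD tumors and from 7.02 to 8.06 in CD tumors. In both genes, as in Hmox2, CD 1 was the highest of all 8 tumors. For all 4 breakdown genes the SD was larger on CD, with a median SD of 0.151 on HFHCD and 0.385 on CD.

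Of the 6 carriers of heme and its precursors, only Slc48a1 passed. It encodes HRG-1, which moves heme out of the endosome and lysosome into the cytosol. Slc48a1 measured 10.02, 10.09, 10.27 and 10.24 in HFHCD tumors, against 9.74, 9.93, 9.61 and 10.00 in CD tumors. All HFHCD tumors lay above all CD tumors, with HFHCD 1 just above CD 4. Means were 10.16 ± 0.12 on HFHCD and 9.82 ± 0.18 on CD (SD, n = 4 each), a 1.26-fold difference (0.34, standard error 0.11). It passed in 16 of 17 settings. Without CD 1 and CD 3 together, the tumors with the highest macrophage, fibroblast and skeletal muscle markers, the difference was 0.19 and did not pass.

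Slc25a38, the mitochondrial glycine carrier that feeds the first step, measured 7.40, 7.47, 7.19 and 7.23 in HFHCD tumors, against 7.70, 7.07, 6.81 and 6.91 in CD tumors (difference 0.20, standard error 0.18). CD 1 was the highest tumor and the other 3 CD tumors lay below every HFHCD tumor. Without CD 1 the difference was 0.40 and passed the threshold, and without CD 3 it was 0.10 and did not.

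Flvcr1, a heme exporter of the cell surface that is also described as a choline carrier, averaged 7.66 ± 0.09 on HFHCD and 7.83 ± 0.19 on CD (difference -0.16, standard error 0.11). With 1 tumor left out its difference ran from -0.21 to -0.08 and did not pass, and without CD 1 and CD 3 together it was -0.31 and passed. The related Flvcr2 averaged 3.79 on HFHCD and 3.85 on CD, under the level near background on both diets. Abcb6, a porphyrin transporter, ran from 8.06 to 8.25 in HFHCD tumors and from 7.55 to 8.40 in CD tumors, and Abcb10, a transporter of the inner mitochondrial membrane needed for heme synthesis in red cell precursors, from 6.90 to 7.28 and from 6.80 to 7.22. Their differences were 0.03 and 0.01, and in Abcb6 CD 3 was the lowest tumor and CD 4 the highest.

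Among the 6 genes of iron uptake and mitochondrial import, only Slc11a1 passed. It encodes NRAMP1, the metal pump of the phagosome membrane in macrophages and neutrophils. Slc11a1 measured 6.37, 6.64, 5.95 and 6.65 in HFHCD tumors, against 7.15, 6.71, 7.84 and 6.69 in CD tumors. All HFHCD tumors lay below all CD tumors, but HFHCD 2 and 4 came close to CD 2 and 4, and the highest tumor was CD 3, followed by CD 1. The means were 6.40 ± 0.33 on HFHCD and 7.10 ± 0.54 on CD (SD, n = 4 each), 1.62-fold lower (difference -0.69, standard error 0.26).

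In Slc11a1 the CD tumors ran CD 3, CD 1, CD 2 and CD 4 from high to low. The macrophage marker mean had the same order (7.80, 7.40, 6.34 and 6.22), and HFHCD 3 was the lowest tumor in both. That order also held for the fibroblast (7.62, 7.20, 6.30 and 6.26) and skeletal muscle marker means (7.02, 6.95, 5.89 and 5.38), with HFHCD 3 again lowest. Neutrophil markers averaged 4.01 to 4.06 in HFHCD tumors and 3.94 to 4.28 in CD tumors, with 0 of 12 called and 7 under the level near background on every array. The part of macrophage, fibroblast or muscle content in the difference was not tested. Slc11a1 passed in 11 of 17 settings, and its call was lost without HFHCD 1 (-0.68), without HFHCD 3 (-0.54) and without CD 1 and CD 3 together (-0.30). Without CD 3 alone the difference was -0.45 and lay just inside the threshold.

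The genes by which most cells take up iron overlapped between the diets. Tfrc, the transferrin receptor, measured 10.20, 10.30, 10.27 and 10.32 in HFHCD tumors, against 10.50, 10.52, 9.98 and 10.21 in CD tumors, a difference of -0.03 with a standard error of 0.13. The HFHCD tumors lay inside the range of the CD tumors. Steap3, the endosomal ferrireductase, averaged 9.04 on HFHCD and 9.00 on CD. Slc11a2, which encodes the endosomal iron transporter DMT1, averaged 8.20 on HFHCD and 8.18 on CD.

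Slc25a37 and Slc25a28 encode mitoferrin 1 and mitoferrin 2, which carry iron into the mitochondrion. Slc25a37 measured 7.91, 8.04, 7.44 and 7.42 in HFHCD tumors, against 6.61, 7.56, 7.95 and 7.17 in CD tumors, a difference of 0.38 with a standard error of 0.27 that did not pass. HFHCD 1 and 2 lay above HFHCD 3 and 4, as for Ppox, while CD 1 was the lowest tumor and CD 3 reached the level of the higher HFHCD pair. Slc25a28 measured 8.38, 8.67, 8.27 and 8.37 in HFHCD tumors, against 8.0, 8.24, 8.55 and 8.17 in CD tumors (difference 0.18, standard error 0.14). Without CD 3 the differences were 0.59 for Slc25a37 and 0.29 for Slc25a28 and both passed, whereas without CD 1 they were 0.14 and 0.10 and neither passed.

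**Figure D4:**
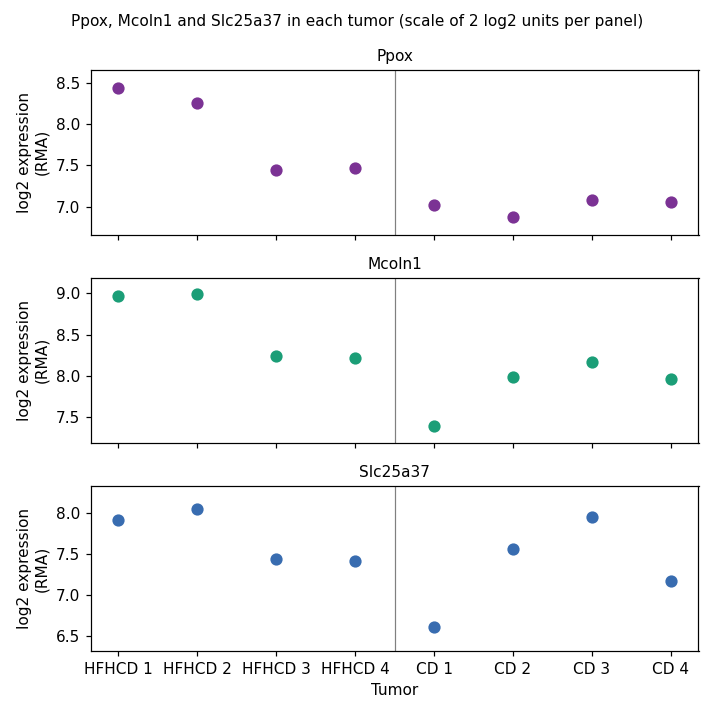
Log2 expression of Ppox, the lysosomal channel gene Mcoln1 and the mitoferrin 1 gene Slc25a37 in each tumor, HFHCD tumors left of the line and CD tumors right, each panel spanning the same number of log2 units. HFHCD 1 and 2 lie above HFHCD 3 and 4 in all 3 panels, whereas the CD tumors differ in order between the panels. Uros, Slc25a28, Slc25a38 and Meltf, not drawn here, show the same split, as do markers such as Csf1r and Rhd. Genes with it were not counted.

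Iron storage and sensing gave 5 genes, none of which passed. Fth1, the ferritin heavy chain, ran from 12.99 to 13.02 in HFHCD tumors and from 12.97 to 13.09 in CD tumors (difference -0.03, standard error 0.08). Ftl1, the light chain, ran from 4.48 to 4.68 in HFHCD tumors and from 4.29 to 5.13 in CD tumors, about the level near background. Ferritin genes have many processed copies in the mouse genome, which the array may not tell apart, so these values are uncertain.

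Ncoa4, the receptor that delivers ferritin to the lysosome, averaged 4.13 ± 0.32 on HFHCD and 4.29 ± 0.17 on CD (SD, n = 4 each), under the level near background on both diets. Its difference was -0.16. It was -0.31 and passed without HFHCD 3, its highest tumor at 4.58, and was -0.06 and did not pass without HFHCD 4, its lowest at 3.82. Aco1 and Ireb2 encode the iron regulatory proteins, which bind ferritin and transferrin receptor mRNA when iron is low. Aco1 measured 7.64, 7.99, 8.08 and 7.93 in HFHCD tumors, against 7.68, 8.29, 7.99 and 8.33 in CD tumors (difference -0.16, standard error 0.16). The difference ran from -0.29 to -0.07 and did not pass with 1 tumor left out, and without CD 1 and CD 3 together it was -0.40 and passed. Ireb2 averaged 8.54 on HFHCD and 8.52 on CD.

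The 5 genes of iron export and plasma binding had differences from -1.11 to -0.03, and only Hp passed. Over all genes, 12173 of 24675 differences lay below 0. Hp encodes haptoglobin, the plasma protein that captures free hemoglobin. It measured 4.88, 5.26, 4.78 and 5.33 in HFHCD tumors, against 6.74, 5.18, 6.91 and 5.86 in CD tumors. CD 1 and CD 3 were far above all other tumors, and CD 2 lay among the HFHCD tumors, so the groups overlapped. The means were 5.06 ± 0.27 on HFHCD and 6.17 ± 0.81 on CD (SD, n = 4 each), 2.16-fold lower (difference -1.11, standard error 0.35), and only 1.39% of all genes had a larger SD among CD tumors.

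Without CD 1 and CD 3 together the Hp difference was -0.46 and did not pass, whereas it passed in the other 16 settings. The tumors with high Hp were those with high macrophage, fibroblast and skeletal muscle marker means, whose part in the difference was not tested. Hepatocyte markers, from the main source of plasma haptoglobin, averaged 4.74 to 4.85 in HFHCD tumors and 4.59 to 4.88 in CD tumors with 0 of 7 called.

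Cp, whose product ceruloplasmin oxidises iron as it leaves the cell, measured 5.47, 5.67, 5.33 and 5.74 in HFHCD tumors, against 5.78, 5.66, 6.28 and 5.70 in CD tumors. The difference of -0.30 (standard error 0.16) did not pass, and CD 3 was the highest tumor, as in Hp and Slc11a1. Its membrane-bound relative Heph averaged 4.34 on HFHCD and 4.46 on CD, and Hpx, the plasma heme binder hemopexin, 4.09 on HFHCD and 4.13 on CD, both under the level near background.

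Slc40a1 encodes ferroportin, the only known iron exporter of mammalian cells. It measured 4.2, 4.58, 4.62 and 4.56 in HFHCD tumors, against 4.46, 5.06, 4.03 and 4.55 in CD tumors (difference -0.03, standard error 0.20). The values interleave and lie about the level near background, with CD 2 the highest tumor and CD 3 the lowest.

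**Figure D5:**
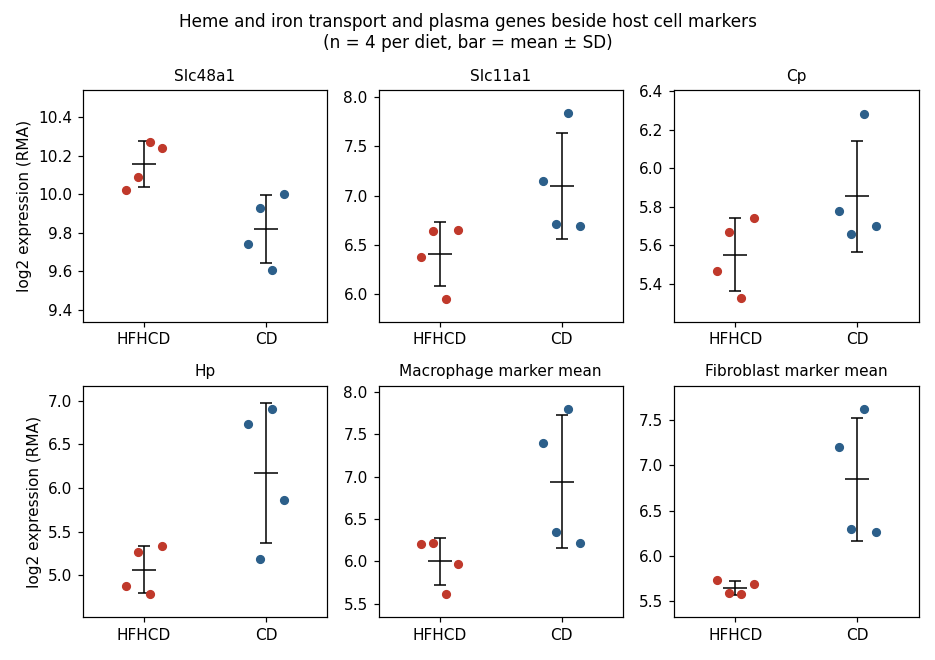
Log2 expression of Slc48a1, Slc11a1, Cp and Hp in each tumor beside the mean over the macrophage and the fibroblast markers, HFHCD left and CD right, with mean and SD as bars (n = 4 per diet). CD 1 and CD 3 are the highest tumors in both marker panels and for Hp (6.74 and 6.91), and the lowest for Slc48a1 (9.74 and 9.61).

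Spread among tumors differed between the diets for most of these genes. The SD was larger among CD tumors for 29 of the 34 genes, and for 17245 of all 24675. The median SD of the 34 genes was 0.173 on HFHCD and 0.242 on CD, beside 0.136 and 0.197 over all genes. The 5 exceptions with a larger SD on HFHCD were Alas2, Alad, Cpox, Ppox and Ncoa4, of which 4 are synthesis enzymes. CD 3 was the lowest tumor for 11 of the genes and the highest for 7, and CD 1 the highest for 7 and the lowest for 5, whereas HFHCD 2 was the lowest for 0.

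Heme and iron genes outside the 34 were taken from 5 lists of the wider pathway, of which 105 of 111 genes were measured. These lists too were chosen with earlier results of these data known, so the p-values given for their genes are descriptions. Of these, 4 were higher at an unadjusted p under 0.05 by limma (Slc25a39, Slc46a1, Mcoln1 and Meltf) and 4 were lower (Mafk, Keap1, Cd163 and Bmp2). The other 97 did not pass. Over all 24675 genes 8.68% passed, 4.76% higher and 3.91% lower, and nothing is read from the counts of these lists. The median difference of the 105 genes was 0.01. The split was 4 higher and 2 lower with each array centred on its median, and 4 higher and 6 lower after cyclic loess.

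Mcoln1, which encodes a cation channel of the lysosome that releases iron, was the largest change among them. It measured 8.97, 8.99, 8.24 and 8.22 in HFHCD tumors, against 7.39, 7.99, 8.17 and 7.96 in CD tumors. It was higher in 4 of 4 HFHCD tumors than in any CD tumor, by 0.73 with a standard error of 0.23 (limma, unadjusted p = 0.0112, adjusted p = 0.466), and passed in 17 of 17 settings. As for Ppox, HFHCD 1 and 2 lay above HFHCD 3 and 4, which was noticed after the values were seen. Uros, Slc25a28, Slc25a38 and Meltf had this split too, as did markers outside the pathway such as Csf1r and Rhd. Its frequency over all genes was not counted. Meltf, the melanoma-associated transferrin relative melanotransferrin, was higher by 0.25 (standard error 0.09, limma, unadjusted p = 0.024, adjusted p = 0.51), and 23 of the 25 measured genes of this list did not pass. Without HFHCD 1, HFHCD 2 or CD 2 the Meltf difference was 0.22, 0.23 or 0.21 and the call was lost.

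Of 14 further heme synthesis genes, only Slc25a39 passed, a mitochondrial carrier of glutathione that red cell precursors need for heme synthesis. It measured 10.64, 10.77, 10.82 and 10.95 in HFHCD tumors, against 10.70, 10.41, 10.32 and 10.55 in CD tumors. It was higher by 0.30 with a standard error of 0.11 (limma, unadjusted p = 0.0239, adjusted p = 0.51), with HFHCD 1 below CD 1, and the call was lost without HFHCD 3 (0.29), HFHCD 4 (0.25), CD 2 (0.27) or CD 3 (0.24).

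Of 23 genes of heme sensing and heme or hemoglobin uptake, 1 was higher and 3 were lower. Slc46a1, a carrier of folate and heme, was higher by 0.44 (standard error 0.16, limma, unadjusted p = 0.0197, adjusted p = 0.498), and the call was lost without HFHCD 3 (0.38) or CD 3 (0.34). Cd163, the macrophage receptor for hemoglobin bound to haptoglobin, measured 4.46, 4.28, 4.28 and 4.10 in HFHCD tumors, against 5.04, 4.36, 5.25 and 4.36 in CD tumors. It fell by 0.47 with a standard error of 0.21 (limma, unadjusted p = 0.047, adjusted p = 0.567), and CD 1 and CD 3 were its highest tumors as for Hp. Its difference was -0.08 without those 2 tumors, and the call was also lost without HFHCD 2 (-0.47), HFHCD 3 (-0.47), HFHCD 4 (-0.41), CD 1 (-0.37) or CD 3 (-0.31).

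Mafk, a small Maf partner of the heme sensor BACH1, fell by 0.20 (standard error 0.08, limma, unadjusted p = 0.0405, adjusted p = 0.551), with all 4 HFHCD tumors below all CD tumors. Its call was lost when any tumor other than HFHCD 3 or CD 2 was left out, where differences ran from -0.21 to -0.16. Keap1, the sensor that holds NRF2 in check, fell by 0.31 (standard error 0.13, limma, unadjusted p = 0.046, adjusted p = 0.565), and the call was lost without HFHCD 1 (-0.20), HFHCD 4 (-0.31), CD 2 (-0.29), CD 3 (-0.31) or CD 4 (-0.25).

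Of 22 genes of systemic iron control through hepcidin, only Bmp2, a ligand of the pathway that induces hepcidin in the liver, passed. It fell by 0.33 in HFHCD tumors (standard error 0.09, limma, unadjusted p = 0.00548, adjusted p = 0.437), with all HFHCD tumors below all CD tumors. Its values of 3.79 to 3.89 in HFHCD tumors and 3.99 to 4.31 in CD tumors lie under the level near background. Of 21 measured genes that build iron-sulfur clusters, the other main use of mitochondrial iron, 0 passed at an unadjusted p under 0.05 by limma, with differences from -0.22 to 0.34.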

How the data were processed

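Total RNA of 8 whole tumors, 4 per diet, was measured on Affymetrix MouseGene2.0ST arrays. The authors deposited log2 values made by RMA in Affymetrix Expression Console (submitters' processing notes). No version or genome build was given in the sources used. RMA subtracts background, makes the distributions of the arrays alike and summarises probes, which can narrow differences that affect most genes. Deposited values ran from 2.22 to 14.05. Diet and tumor number came from the sample titles. Of 25429 probe sets, 24675 had 1 symbol in the platform annotation and were used, 0 had several, and 754 were not named here.

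HFHCD was compared with CD by lmFit and eBayes in limma 3.58.1 (R 4.3.3) over all 24675 genes, with no covariate, filter or further scaling. The threshold was an unadjusted p under 0.05, as in the methods, with Benjamini-Hochberg adjustment over all genes. The p-values set the difference between the diets against the spread between these tumors only. In eBayes, each gene's variance is drawn toward a value common to all genes. The script was tested on simulated data. The 34 genes and the lists of other pathway genes and markers were chosen with earlier results of these data known, and so was the setting that leaves out CD 1 and CD 3 together. All 34 genes are named, with each tumor's value for synthesis enzymes and for genes that passed or stood apart. Of the others, up to 4 of each pathway list that passed with the smallest p are named, and the nearest measured genes on either side of Ppox. Values in each tumor of other genes, such as Hbb-bt and Slc25a28, were added after they were seen.

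The 17 other settings were the tumor number as a block, each tumor left out in turn, CD 1 and CD 3 left out together, the methods' t-test, a robust prior with a trend, weights for array quality, centring on the array median, normalization by quantiles or by cyclic loess, and a filter for genes above 4.5 in at least 4 arrays. All settings reuse the same tumors, so the number of settings a gene passed in is a description and adds no support. Promoter windows came from RefSeq (GRCm38.p6). Python 3.11.15 with matplotlib 3.10.9 made tables and plots. The number of arrays limits the precision.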

Additional observations from a re-analysis of the deposited data

Results flagged for a closer look

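In 4 of 92 groups of 4 tumors checked, 1 tumor stood far from the other 3, judged by its gap to the nearest of the others as a share of the whole range (Dixon's test at 95%). Chance alone flags about 1 in 20 such groups. Fech had a share of 0.901 in HFHCD tumors, with HFHCD 1 lowest at 8.53 and the others at 8.74 to 8.77. Slc11a2 had a share of 0.882 in HFHCD tumors, with HFHCD 1 lowest at 7.94 and the others at 8.27 to 8.31. Slc40a1 had a share of 0.875 in HFHCD tumors, with HFHCD 1 lowest at 4.2 and the others at 4.56 to 4.62. Ftl1 had a share of 0.856 in CD tumors, with CD 4 highest at 5.13 and the others at 4.29 to 4.41.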

How the results depend on the processing

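Of the 34 genes, the number lower in HFHCD tumors was 2 in place of 4 with the methods' t-test, where Alad and Slc11a1 did not pass. With 1 tumor left out, 2 to 4 were higher (4 without CD 3, where Slc25a37 and Slc25a28 also passed) and 2 to 4 lower (2 without HFHCD 1). Without CD 1 and CD 3 together, 2 were higher (Ppox and Slc25a38) and 4 lower (Alad, Cpox, Flvcr1 and Aco1). Of the 105 other heme and iron genes, 2 to 13 were higher and 2 to 11 lower with 1 tumor left out. The highest counts, 13 and 11, came without CD 1, where over all genes 1942 were higher and 1767 lower, and the lowest, 2 and 2, without CD 3. The number lower was also 2 without HFHCD 2 or HFHCD 4. These counts were 8 higher and 7 lower without CD 1 and CD 3 together, and 9 higher and 8 lower with array weights. The share of all genes called was also larger in these settings, 15% without CD 1, 14.5% without CD 1 and CD 3 together and 14.2% with array weights, against 8.68%. By limma, 2 were lower with the trended prior and 2 with median centring, by the methods' t-test 2, and with the filter on dim genes 0 of the 87 genes left, where Bmp2 and Cd163 were filtered out and Mafk and Keap1 did not pass. The direction turned for Ufc1 without CD 2 (-0.01), CD 3 (-0.07) or CD 4 (-0.00), and Ufc1 passed without CD 1 (0.23). It also turned for Adamts4 without CD 1 and CD 3 together (-0.03), where Hp was -0.46 and Fth1 0.02. The causes were not tested.

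The deviations of tumors with the same number from their diet means correlated at 0.269, -0.029, -0.265 and 0.051. No values for tumors of different numbers stand beside these, and the sample titles give only the number. Whether the numbers pair the tumors is therefore not known. With the tumor number as a block, 2 of the 34 genes were higher and 2 lower (Alad and Slc11a1 did not pass), 3 and 4 of the 105 other genes, and 1110 and 981 of all genes. Mafk, Meltf and B4galt3 did not pass under the block.

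Values near 4.5 carry little signal over background, which limits Alas2, Ftl1, Slc40a1, Cd163 and the 4 genes under it on both diets. With 4 tumors per diet and no gene past adjustment, single calls rest on few arrays.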
